A study of Homo sapiens with 27 samples.

Results

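The 9 genes described here carry out antigen presentation by class I molecules of the major histocompatibility complex (MHC) in MCF10A, a human cell line from breast epithelium that is established in culture and does not form tumours. They are HLA-B, HLA-C, HLA-E, HLA-F, B2M, TAP1, TAP2, PSMB8 and PSMB9. They were chosen by gene symbol out of 36536 features in the deposited table, and all 9 passed the filter on low counts that left 15547 features to test. RNA-seq counts were available from 27 libraries in 9 groups of 3. All cells were grown with 20 ng/ml epidermal growth factor (EGF) and then held for 18 h without growth factors. A group named T0 was collected at that point, 0 h. The others were collected 24 h later, after phosphate-buffered saline (PBS) alone or after 10 ng/ml each of EGF, OSM (oncostatin M, an inflammatory cytokine) or transforming growth factor beta (TGFB), or after EGF+OSM, EGF+TGFB, OSM+TGFB or EGF+OSM+TGFB. The design allows each ligand to be compared with and without the others. The study uses a single cell line, and no label says whether replicates came from separate cultures, so the p-values measure only the spread between these libraries.

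Class I molecules display short peptides on the cell surface to cytotoxic T cells and natural killer cells. PSMB8 and PSMB9 are catalytic subunits that replace constitutive subunits in the immunoproteasome, which cuts proteins into peptides. TAP1 and TAP2 pair to form the transporter that carries the peptides into the endoplasmic reticulum. There the peptides load onto a heavy chain paired with the light chain B2M. HLA-B and HLA-C are classical, polymorphic heavy chains, HLA-E presents leader peptides of other class I chains to receptors of natural killer cells, and HLA-F is a nonclassical heavy chain. In most tissues the pathway is known as a target of interferon signalling, through an interferon response element and a kappaB site upstream of many of its genes, and of the transactivator NLRC5.

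The bases just upstream of the RefSeq start site are printed for HLA-B, B2M and TAP1, which fell under EGF, and for TAP2, which rose. HLA-C, HLA-E, HLA-F, PSMB8 and PSMB9 fell too and are not printed. The printed members that fell are those with a kappaB match, as described below. The windows run 5′ to 3′ on the gene's own strand and come from RefSeq (GRCh38.p14), where 8 of the 9 members had an entry and HLA-E did not. Bases that GENCODE places in an untranslated region of the gene are left out of the printed windows, so these are shorter than 250 bases except for TAP2. Capitals mark matches, on either strand, to the core of the interferon response element (AANNGAAA) and to the kappaB motif (GGGNNTTNCC).
HLA-B upstream window, chr6:31357294-31357429, minus strand: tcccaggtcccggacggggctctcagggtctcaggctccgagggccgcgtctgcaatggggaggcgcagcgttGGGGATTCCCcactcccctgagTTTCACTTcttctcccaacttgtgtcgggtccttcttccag
B2M upstream window, chr15:44711267-44711508, plus strand: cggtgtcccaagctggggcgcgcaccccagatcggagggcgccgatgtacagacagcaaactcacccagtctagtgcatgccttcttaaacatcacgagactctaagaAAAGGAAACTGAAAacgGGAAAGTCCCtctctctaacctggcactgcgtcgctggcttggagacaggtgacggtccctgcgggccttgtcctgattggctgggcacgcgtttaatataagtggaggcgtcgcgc
TAP1 upstream window, chr6:32853817-32853954, minus strand: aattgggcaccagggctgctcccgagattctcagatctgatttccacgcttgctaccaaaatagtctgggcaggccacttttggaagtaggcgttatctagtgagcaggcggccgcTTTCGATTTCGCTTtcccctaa
TAP2 upstream window, chr6:32838740-32838989, minus strand: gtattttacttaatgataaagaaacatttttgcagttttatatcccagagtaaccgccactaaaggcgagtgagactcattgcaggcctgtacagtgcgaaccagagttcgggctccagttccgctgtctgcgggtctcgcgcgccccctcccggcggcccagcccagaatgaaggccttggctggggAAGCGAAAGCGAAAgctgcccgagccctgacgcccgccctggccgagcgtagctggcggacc
The AANNGAAA letters were found in the 250-base windows of HLA-B, HLA-C, HLA-F, B2M, TAP1 and TAP2, and in 20.3% of the 34943 windows of the same length over all genes. B2M, TAP1 and TAP2 each held 2 overlapping matches. TAP1 has a further RefSeq start, whose window held none, and no match lay in the windows of PSMB8 or PSMB9. The AANNGAAA matches of TAP1 lie in the stretch between the starts of TAP1 and PSMB9, beyond the 250-base window of PSMB9. GGGNNTTNCC was found in the windows of HLA-B, B2M and TAP1 and in 5.05% of all windows. The kappaB match of TAP1, 72 to 63 bases before its start, lies in the part left out. In HLA-B the kappaB match lay 177 to 168 bases before the start site and the interferon element match 155 to 148 bases before it. TAP2, the member that rose under EGF, had the interferon element letters 62 to 49 bases before its start and no kappaB match. The windows of HLA-C, HLA-F, PSMB8 and PSMB9, members that fell under EGF, held no kappaB match either. These matches describe the letters in the windows and not the binding of a factor.

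B2M lies on chromosome 15, at 44711358 to 44718851 on the plus strand (GRCh38, GENCODE annotation, whole gene with exons and introns). The other 8 genes lie in the MHC on chromosome 6, HLA-F at 29722775 to 29738528, HLA-E at 30489509 to 30494194, HLA-C at 31268749 to 31272130 and HLA-B at 31353872 to 31367067. TAP2 (32821833 to 32838739), PSMB8 (32840717 to 32844679), PSMB9 (32844136 to 32859851) and TAP1 (32845209 to 32853816) are neighbours, and the RefSeq starts of TAP1 and PSMB9 face away from each other 488 bases apart. Some exons overlap those of other genes. PSMB8 and PSMB9 share 139 exon bases on opposite strands, the antisense RNA PSMB8-AS1 covers 672 exon bases of TAP1 and 602 of PSMB8, and TAP2 shares 2023 exon bases with ENSG00000250264, an annotated readthrough gene on its own strand. The library kit keeps strand, but whether strand was used in counting is not given in the sources used here. The heavy chain genes resemble each other and other class I genes closely, so the split of reads among them is uncertain.

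The MHC genes also have copies on alternate loci, and each symbol had 6 to 8 rows in the table except B2M with 2. Rows of a symbol were summed here, with rows that held identical values in every library counted once. For HLA-E this left a level about 4 times below the sum of all rows, by nearly the same factor in every library (3.97 to 4), and no call of HLA-E changed when all rows were summed. For PSMB8 the factor ran from 1.06 to 1.88 between libraries. A single alternate-locus row of PSMB8 held 801 counts in EGF+OSM replicate 1, 642 in PBS replicate 1 and 578 in EGF+TGFB replicate 2, against 12 to 73 in the other 24 libraries. The median coefficient of variation of PSMB8 within groups was 12.2% by the rule and 6.21% with all rows summed. PSMB8 is therefore given under both treatments of its rows for most comparisons. With only the most abundant row of each symbol, 11 of the 14 calls of TAP2 and 7 of the 10 calls of PSMB8 described below were lost, against at most 3 calls of any other member. These losses are named below mainly for TAP2, and not for every member and comparison. For the remaining members the sum of all rows was at most 1.33 times the value used in any library.

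Library totals ran from 30.1 M to 52.9 M counts, with a median of 39.5 M, and levels are given as CPM (counts per M of scaled library size, where M is mega). The members held from 18 (PSMB9, lowest library) to 29685 (B2M, highest library) counts per library, so counting error matters mainly for PSMB9. The markers of basal mammary epithelium were present, with 6 of 6 (KRT5, KRT14, KRT17, TP63, CDH1, EPCAM) over 1 CPM in every group and summed levels of 9971 to 11592 CPM in PBS and 8282 to 9181 CPM in EGF. Of 6 leukocyte markers, PTPRC, CD3E, MS4A1 and NKG7 had at most 10 counts in any library. CD14, the only leukocyte marker over 1 CPM, moved with the groups: the summed leukocyte markers, nearly all CD14, were 28.4 to 34.3 CPM in PBS, 5.94 to 7.50 CPM in EGF and 55.7 to 80.1 CPM in OSM. Fibroblast markers were led by COL1A1 (1 of 4 over 1 CPM) and were highest in TGFB, at a sum of 106.7 to 119.4 CPM. The summed endothelial markers (PECAM1, VWF, CDH5) did not exceed 4.63 CPM. The part of these markers in the results below was not tested. In bulk RNA a lower level in every cell and a smaller share of cells with a high level cannot be told apart.

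Per kilobase of the canonical transcript, and with all rows summed, B2M was the most abundant member in PBS at 621 CPM per kb. HLA-C followed at 191, HLA-E at 145 and HLA-B at 101 CPM per kb. PSMB8 (32.4), TAP1 (21.9), HLA-F (15.8) and TAP2 (13.8) were lower, and PSMB9 was lowest at 2.55 CPM per kb. The place of HLA-E depends on the treatment of its rows: by the rule it was at 36.6 CPM per kb, below HLA-B at 102. By the rule PSMB9 did not exceed 2.55 CPM in any library of any group, and with all rows summed it did not exceed 3.19 CPM.

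EGF lowered 8 of the 9 members against PBS and raised the remaining member, TAP2. Over all features tested, 38.7% were lower and 34.9% higher in this comparison (called at an adjusted p under 0.05 over all features, the threshold used throughout), and the median log2 fold change was -0.94 over the members and -0.07 over all features. At least 2-fold reductions were seen for HLA-B, HLA-E, TAP1 and PSMB9, 4 of 9 members, against 15.9% of all features. All 9 calls held when any single library of either group was left out.

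Among the heavy chains, HLA-E fell the most under EGF. It stood at 89.9, 101 and 89.5 CPM in the PBS libraries and at 34.5, 37.6 and 34.4 CPM in the EGF libraries, or -1.39 ± 0.079 as log2 fold change (with its SE; adjusted p = 3.76e-14). HLA-B went from 156, 169 and 145 to 77.5, 79.5 and 71.3 CPM, -1.04 ± 0.097 on the log2 scale (adjusted p = 1.16e-09). For both genes every EGF library lay below every PBS library, with a wide gap. HLA-F, the least abundant heavy chain, was at 20.2, 25.2 and 21.4 CPM in PBS and 13.8, 11.8 and 10.2 CPM in EGF (log2 fold change -0.90 ± 0.14, adjusted p = 3.29e-06). HLA-C changed least, from 279.7, 320.0 and 292 to 200.5, 211 and 197 CPM (log2 fold change -0.55 ± 0.064, adjusted p = 2.46e-08). The ratios between heavy chains also differed: counts of HLA-E over HLA-C, with all rows summed, were 1.29, 1.26 and 1.23 in the PBS libraries and 0.688, 0.713 and 0.693 in the EGF libraries, and HLA-B over HLA-C went from 0.528 ± 0.0296 to 0.375 ± 0.0126 (mean ± SD, n = 3; exact permutation test, two-sided p = 0.1 for each, the smallest that 3 against 3 allows).

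The light chain B2M also fell. It stood at 599, 637 and 534 CPM in PBS and at 355, 357 and 337 CPM in EGF, 1.69-fold lower (log2 fold change -0.76 ± 0.061, adjusted p = 2.77e-11). The EGF libraries lay close to each other and well under the lowest PBS library. The immunoproteasome subunit PSMB9 had the largest change of the members, from 1.94, 2.09 and 2.05 CPM to 0.426, 0.603 and 0.467 CPM, 4.02-fold lower (log2 fold change -2.01 ± 0.20, adjusted p = 2.19e-09). PSMB8, its partner subunit, went from 29.2, 22.9 and 20.3 to 11.2, 13.1 and 13.6 CPM (log2 fold change -0.94 ± 0.18, adjusted p = 9.67e-05). With all rows summed the PSMB8 libraries were at 37.0, 38.0 and 34.3 CPM in PBS and 20.5, 21.1 and 22.0 CPM in EGF, a log2 fold change of -0.78 (adjusted p = 3.29e-09). With its most abundant row alone PSMB8 missed the threshold (-0.77, adjusted p = 0.0517).

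The transporter subunits moved in opposite directions under EGF. TAP1 fell from 53.9, 60.1 and 47.9 to 27.4, 26.4 and 22.3 CPM, 2.12-fold (log2 fold change -1.09 ± 0.11, adjusted p = 4.40e-09). TAP2 rose from 78.4, 81.2 and 76.1 to 97.8, 94.6 and 95.6 CPM, 1.22-fold (log2 fold change 0.29 ± 0.059, adjusted p = 9.50e-05). Neither gene's EGF libraries overlapped its PBS libraries. The rise of TAP2 rests on the sum of its rows. Its most abundant row alone gave a log2 fold change of -0.06 (adjusted p = 0.839).

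**Figure D1:**
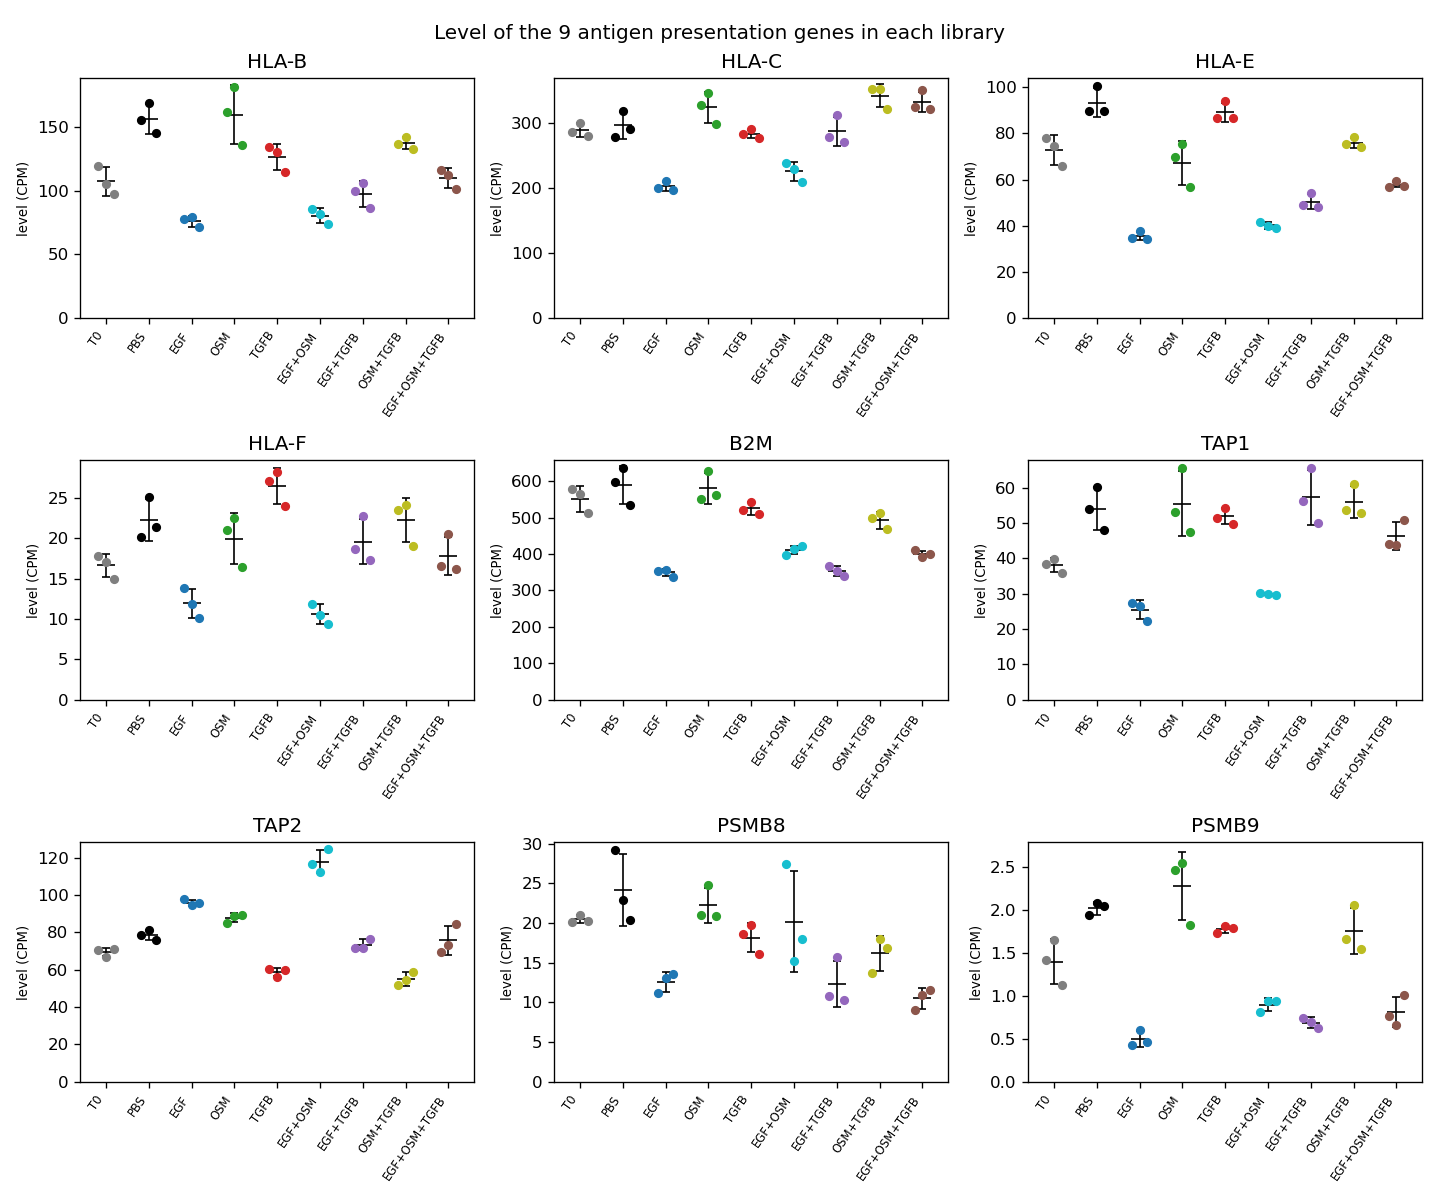
Level of each of the 9 genes in CPM (vertical axis from 0) in each of the 3 libraries (points) of the 9 groups (horizontal axis), with the group mean (horizontal bar) and SD (error bar). EGF libraries are the lowest for HLA-B, HLA-C, HLA-E, B2M, TAP1 and PSMB9 by group mean, while TAP2 is highest in EGF+OSM at 118 ± 6.15 CPM.

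With OSM alone, 2 members passed the test. HLA-E was lower, at 69.6, 75.5 and 56.9 CPM (log2 fold change -0.47 ± 0.077, adjusted p = 7.35e-06), and TAP2 was higher, at 85.4, 89.0 and 89.5 CPM (log2 fold change 0.16 ± 0.059, adjusted p = 0.0183). That is 1 of 9 members in each direction, against 29.9% of all features lower and 33.6% higher. HLA-E libraries in OSM all lay under the lowest PBS library, and its call held in each leave-out. With its most abundant row alone TAP2 was lower and not called (-0.22, adjusted p = 0.430). The TAP2 call by the rule also did not hold in each leave-out: it was lost without PBS replicate 3 (0.14, adjusted p = 0.0745) or OSM replicate 3 (0.15, adjusted p = 0.0537), and with upper-quartile scaling (0.10, adjusted p = 0.117). HLA-C had a log2 fold change of 0.13 ± 0.064 (adjusted p = 0.0777), which passed without PBS replicate 2 (0.19, adjusted p = 0.0220) or OSM replicate 3 (0.19, adjusted p = 0.0193). B2M in OSM, at 551, 629 and 561 CPM, overlapped PBS.

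TGFB alone lowered 3 members, with 15.8% of all features lower. TAP2 fell from its PBS level to 60.2, 56.3 and 59.9 CPM, 1.34-fold (log2 fold change -0.42 ± 0.059, adjusted p = 3.28e-06), and no TGFB library came near PBS. HLA-B was at 135, 131 and 115 CPM (log2 fold change -0.31 ± 0.096, adjusted p = 0.0146). That call was lost without PBS replicate 2 (-0.25, adjusted p = 0.0817) or TGFB replicate 3 (-0.24, adjusted p = 0.0847). B2M was at 521, 544 and 511 CPM, overlapping PBS (log2 fold change -0.17 ± 0.060, adjusted p = 0.0315), and this call was lost without PBS replicate 1 (-0.16), PBS replicate 2 (-0.11), TGFB replicate 1 (-0.16) or TGFB replicate 3 (-0.15). The heavy chains HLA-C, HLA-E and HLA-F and the transporter subunit TAP1 did not pass the test in TGFB, with log2 fold changes of -0.06, -0.07, 0.25 and -0.06. PSMB8 (-0.41 ± 0.18, adjusted p = 0.0864, and -0.18 with all rows summed) and PSMB9 (-0.19 ± 0.18, adjusted p = 0.471) did not pass either. By the rule the TGFB libraries of PSMB8 and PSMB9 all lay under their PBS libraries, and PSMB8 passed with DESeq2 (-0.42, adjusted p = 0.0481).

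**Figure D2:**
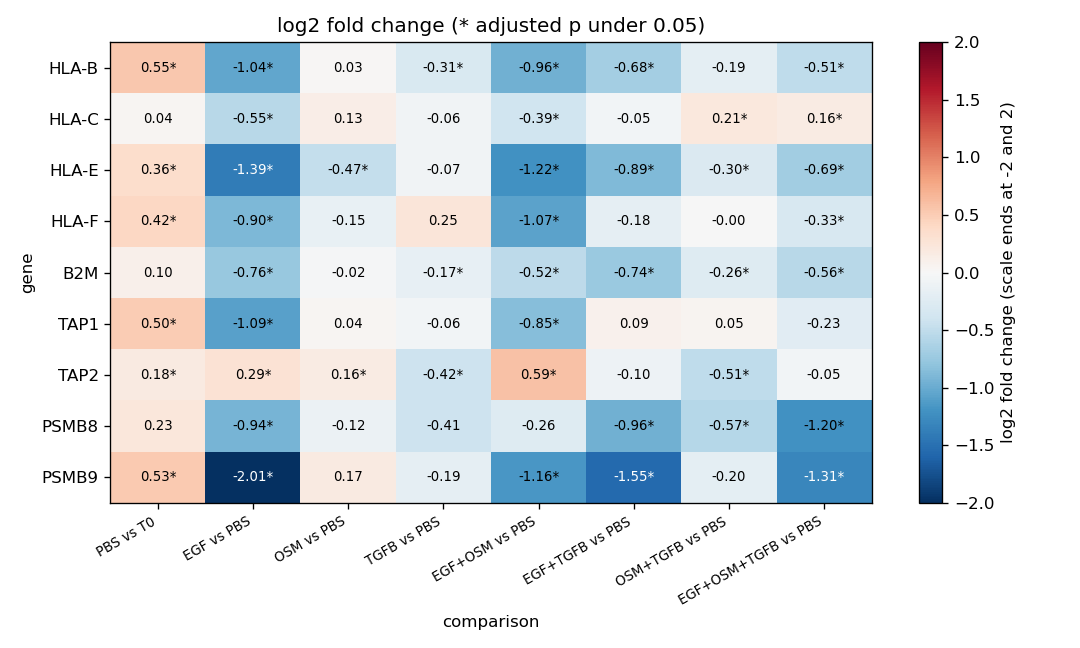
log2 fold change of each gene (rows) in each comparison (columns), printed in each cell and coloured from blue (lower) to red (higher), with an asterisk where the adjusted p was under 0.05. The EGF column is called in all 9 rows, and TAP2 is the only row with positive called values in the EGF and EGF+OSM columns.

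With EGF+OSM, 7 members were lower than in PBS (39.6% of all features lower) and TAP2 was higher (37.6% higher). HLA-E was at 41.7, 39.9 and 38.8 CPM (log2 fold change -1.22 ± 0.079, adjusted p = 2.37e-13), HLA-F at 11.9, 10.5 and 9.38 CPM (-1.07 ± 0.14, adjusted p = 2.43e-07). TAP2 reached its highest level of any group here, 117, 112 and 125 CPM, 1.5-fold over PBS (log2 fold change 0.59 ± 0.059, adjusted p = 1.25e-09). Its most abundant row alone was not called (0.27, adjusted p = 0.293). PSMB8 by the rule did not pass, at 27.4, 15.2 and 18.0 CPM (-0.26 ± 0.18, adjusted p = 0.193). Replicate 1, the library with the large alternate-locus row, stood above the other libraries of its group. Without it PSMB8 was at -0.54 (adjusted p = 0.00548), and with all rows summed at -0.36 (adjusted p = 2.40e-04), from 28.7, 26.5 and 29.9 CPM.

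Set against EGF alone, adding OSM raised 4 members, B2M, TAP2, PSMB8 and PSMB9, where 17.9% of all features were higher. PSMB9 went from 0.426, 0.603 and 0.467 CPM in EGF to 0.819, 0.939 and 0.943 CPM in EGF+OSM (log2 fold change 0.84 ± 0.22, adjusted p = 0.00328). B2M rose by 0.23 ± 0.060 (adjusted p = 0.00360) and TAP2 by 0.30 ± 0.058 (adjusted p = 2.43e-04). For all 3 genes the EGF+OSM libraries lay above every EGF library. With the most abundant row alone, TAP2 (0.33, adjusted p = 0.307) and PSMB9 (0.83, adjusted p = 0.0899) were not called. PSMB8 rose by 0.67 ± 0.18 (adjusted p = 0.00671), which was 0.39 without EGF+OSM replicate 1 (adjusted p = 0.0768) and 0.42 with all rows summed (adjusted p = 2.37e-04). Its most abundant row alone was not called (0.18, adjusted p = 0.735). The classical heavy chains HLA-B and HLA-C did not pass, at 0.08 and 0.16. HLA-C did without EGF+OSM replicate 3 (0.21, adjusted p = 0.0253). In the converse comparison, EGF added to OSM lowered 7 members (31.8% of all features lower) and raised TAP2 by 0.42 (30% higher; adjusted p = 0.0749 with its most abundant row alone). PSMB8, at -0.14 by the rule, passed as lower without EGF+OSM replicate 1 (-0.42) and with all rows summed (-0.49).

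Against PBS, EGF+TGFB lowered 5 members, with 37.5% of all features lower: HLA-B (-0.68 ± 0.097), HLA-E (-0.89 ± 0.078), B2M (-0.74 ± 0.061), PSMB8 (-0.96 ± 0.19) and PSMB9 (-1.55 ± 0.20), at adjusted p of 8.42e-05 or less. With all rows summed PSMB8 was at -1.06. TAP1 was at 56.2, 65.5 and 49.9 CPM, overlapping the PBS libraries (log2 fold change 0.09 ± 0.11, adjusted p = 0.465). HLA-C, at 279, 313 and 271 CPM, also overlapped PBS (-0.05 ± 0.064, adjusted p = 0.515), but passed as lower with upper-quartile scaling (-0.14, adjusted p = 0.0470). B2M, at 368, 355 and 339 CPM, overlapped its EGF libraries.

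Adding TGFB to EGF raised HLA-B, HLA-C, HLA-E, HLA-F and TAP1, 5 of 9 members, where 27% of all features were higher. TAP1 rose 2.26-fold over EGF alone (log2 fold change 1.17 ± 0.11, adjusted p = 4.54e-09). The lowest EGF+TGFB library of TAP1, 49.9 CPM, was above the highest EGF library, 27.4 CPM. HLA-F went from 13.8, 11.8 and 10.2 to 18.7, 22.7 and 17.4 CPM (0.72 ± 0.14, adjusted p = 1.16e-04). HLA-E went from 34.5, 37.6 and 34.4 to 48.9, 54.3 and 48.1 CPM (0.51 ± 0.079, adjusted p = 5.80e-06). HLA-C rose by 0.50 ± 0.064 and HLA-B by 0.36 ± 0.098 (adjusted p = 3.04e-07 and 0.00312). For each of these 5 genes the groups did not overlap, and no call was lost when a library was left out. The share of all features whose groups did not overlap was not counted, here or in the other comparisons. TAP2 fell instead, to 71.9, 71.6 and 76.7 CPM (-0.39 ± 0.059, adjusted p = 4.05e-06), where 27.7% of all features were lower. With its most abundant row alone the TAP2 value was -0.42, adjusted p = 0.147. B2M (0.02 ± 0.060) and PSMB9 (0.46 ± 0.22, adjusted p = 0.0905) did not pass. PSMB9 did without EGF replicate 2 (0.63, adjusted p = 0.0450). PSMB8 did not pass by the rule (-0.02) and was lower with all rows summed (-0.28, adjusted p = 0.00599).

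The same 5 members were higher when TGFB was added to EGF+OSM, where 31.6% of all features were higher. HLA-F rose by 0.75 ± 0.14, TAP1 by 0.63 ± 0.11, HLA-C by 0.56 ± 0.064, HLA-E by 0.53 ± 0.079 and HLA-B by 0.45 ± 0.098 on the log2 scale, at adjusted p of 0.000305 or less. TAP2 fell by 0.64 ± 0.059, from 117, 112 and 125 to 69.7, 73.1 and 84.7 CPM (adjusted p = 8.23e-10), and PSMB8 also fell (-0.94 ± 0.19 by the rule, -0.63 with all rows summed), where 29.6% of all features were lower. These 7 calls held in each leave-out. B2M did not pass (-0.04 ± 0.060). So the heavy chains and TAP1 were higher with TGFB on both EGF backgrounds, TAP2 by the rule was lower on both, and B2M passed on neither.

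TGFB was also added to OSM, without EGF. There it lowered B2M (-0.24 ± 0.060), TAP2 (-0.68 ± 0.060) and PSMB8 (-0.46 ± 0.18, and -0.47 with all rows summed) with 25.6% of all features lower. With its most abundant row alone TAP2 missed the threshold there (-0.58, adjusted p = 0.0548). The PSMB8 value by the rule had an adjusted p of 0.0421 and lost its call without OSM replicate 1 (-0.50), OSM replicate 2 (-0.37), OSM replicate 3 (-0.50), OSM+TGFB replicate 1 (-0.38) or OSM+TGFB replicate 3 (-0.51). Leaving out OSM+TGFB replicate 2 brought HLA-B (-0.27) and PSMB9 (-0.53) past the test as lower, as did leaving out OSM replicate 3 (-0.32 and -0.51). HLA-E passed as higher without OSM replicate 2 (0.27). TAP2 in OSM+TGFB was the lowest of any group, 51.6, 54.7 and 58.9 CPM. OSM added to TGFB changed 2 members, against 56.7% of all features called in either direction: HLA-C rose by 0.27 ± 0.064 (adjusted p = 7.60e-04) and HLA-E fell by 0.23 ± 0.077 (adjusted p = 0.0131). The HLA-E call was lost without TGFB replicate 2 (-0.19), and TAP2 passed as lower without OSM+TGFB replicate 3 (-0.17).

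Against PBS, OSM+TGFB raised HLA-C (34.3% of all features higher) and lowered HLA-E, B2M, TAP2 and PSMB8 (31.7% lower). HLA-C stood at 354, 353 and 322 CPM, its highest mean of any group (log2 fold change 0.21 ± 0.064, adjusted p = 0.00623). The HLA-C call was lost without OSM+TGFB replicate 2 (0.16, adjusted p = 0.0522) and with upper-quartile scaling (0.12, adjusted p = 0.0931). TAP2 fell by 0.51 ± 0.060, HLA-E by 0.30 ± 0.077 and B2M by 0.26 ± 0.060 (adjusted p = 3.29e-08, 0.00145 and 5.06e-04). PSMB8 was at -0.57 ± 0.18 by the rule (adjusted p = 0.00875), which fell short without PBS replicate 1 (-0.42, adjusted p = 0.0672). With all rows summed it was at -0.34 (adjusted p = 6.17e-04).

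With all ligands together, 6 members were lower than in PBS (36.7% of all features lower) and HLA-C was higher (37.8% higher). PSMB9 fell by 1.31 ± 0.20, to 0.764, 0.667 and 1.01 CPM, and HLA-E by 0.69 ± 0.078, to 56.9, 59.1 and 57.4 CPM (adjusted p = 1.80e-06 and 1.14e-08). B2M and HLA-B fell by 0.56 ± 0.060 and 0.51 ± 0.097 (adjusted p = 6.25e-09 and 4.77e-05). PSMB8 had its lowest level by the rule, 9.07, 10.9 and 11.5 CPM (-1.20 ± 0.19, and -0.99 with all rows summed). The HLA-F call (-0.33 ± 0.14, adjusted p = 0.0364) was lost with all rows summed (adjusted p = 0.0548), without PBS replicate 2 (-0.22) and without EGF+OSM+TGFB replicate 1 (-0.30) or replicate 3 (-0.26). The HLA-C call (0.16 ± 0.064, adjusted p = 0.0238) was lost with upper-quartile scaling (0.07), without PBS replicate 1 (0.12) or replicate 3 (0.15), and without EGF+OSM+TGFB replicate 1 (0.16) or replicate 2 (0.10). TAP1, at 44.2, 43.7 and 50.7 CPM, did not pass (-0.23 ± 0.11, adjusted p = 0.0633). It did with all rows summed (-0.27, adjusted p = 0.0247), with upper-quartile scaling (-0.32, adjusted p = 0.00953), with RLE scaling, the size factors of DESeq2 (-0.25, adjusted p = 0.0443), with DESeq2 itself (-0.24, adjusted p = 0.0362), without PBS replicate 3 (-0.30) and without EGF+OSM+TGFB replicate 3 (-0.30). TAP2 passed as lower without EGF+OSM+TGFB replicate 3 (-0.14).

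EGF also lowered members when TGFB was already present. Added to TGFB, it lowered 6 (35.5% of all features lower) and raised TAP2 by 0.32 ± 0.060 (34% higher; adjusted p = 0.154 with its most abundant row alone). PSMB9 (-1.36 ± 0.20), HLA-E (-0.82 ± 0.078), B2M (-0.57 ± 0.061) and HLA-B (-0.38 ± 0.097) kept their calls in each leave-out. HLA-F (-0.43 ± 0.14) lost it without EGF+TGFB replicate 3 (-0.30). PSMB8 (-0.55 ± 0.19 by the rule, -0.88 with all rows summed) lost it without TGFB replicate 2 (-0.48), EGF+TGFB replicate 1 (-0.46) or EGF+TGFB replicate 3 (-0.40). HLA-C and TAP1 did not pass, at 0.02 and 0.15, and TAP1 passed as higher without EGF+TGFB replicate 3 (0.28). Added to OSM+TGFB, EGF also lowered 6 members (25.9% of all features lower) and raised TAP2 by 0.46 ± 0.060 (26.3% higher; adjusted p = 0.0925 with its most abundant row alone). These were PSMB9 (-1.11 ± 0.20), PSMB8 (-0.63 ± 0.19), HLA-E (-0.40 ± 0.078), HLA-B (-0.32 ± 0.097), B2M (-0.30 ± 0.060) and TAP1 (-0.27 ± 0.11). The TAP1 call was lost without OSM+TGFB replicate 2 (-0.21), EGF+OSM+TGFB replicate 1 (-0.25) or replicate 2 (-0.24), and the PSMB8 call without EGF+OSM+TGFB replicate 1 (-0.53). HLA-F passed as lower without OSM+TGFB replicate 3 (-0.43) or EGF+OSM+TGFB replicate 2 (-0.44). HLA-C did not pass (-0.04 ± 0.064). OSM added to EGF+TGFB changed 3 members by 0.31 or less on the log2 scale (HLA-C, B2M and TAP1), where 26.3% of all features were called, and all 3 calls were lost without EGF+OSM+TGFB replicate 1 or replicate 2. The HLA-C call was also lost without EGF+TGFB replicate 1 or replicate 3, the TAP1 call without EGF+TGFB replicate 1 or replicate 2, and the B2M call without EGF+TGFB replicate 2, EGF+TGFB replicate 3 or EGF+OSM+TGFB replicate 3. HLA-E passed without EGF+TGFB replicate 2 (0.25).

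The design allows a direct test of additivity, by comparing the log2 fold change of a combination with the sum of those of its single ligands. For EGF+TGFB, 4 members departed from the sum, all upward, where 13.4% of all features departed upward. The single-ligand changes of TAP1 summed to -1.14 and the measured change was 0.09, a departure of 1.23 ± 0.15 (SE; adjusted p = 2.91e-06). HLA-B departed by 0.67 ± 0.14, HLA-E by 0.58 ± 0.11 and HLA-C by 0.57 ± 0.090 (adjusted p = 7.24e-04, 3.00e-04 and 4.06e-05). No library left out ended any of these 4 calls. HLA-F was at 0.47 ± 0.19 (adjusted p = 0.0697), and passed without EGF replicate 1 (0.59) or EGF+TGFB replicate 3 (0.61). B2M was at 0.19 ± 0.085 (adjusted p = 0.104), and passed without PBS replicate 3 (0.25) or EGF+TGFB replicate 3 (0.27). TAP2 lay close to its sum (0.03 ± 0.084). PSMB8 was not called by the rule (0.39 ± 0.26, adjusted p = 0.291) or with all rows summed, where the sign changed (-0.099, adjusted p = 0.574).

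For EGF+OSM, 3 members departed upward, with 15.7% of all features. HLA-E departed by 0.65 ± 0.11 (adjusted p = 3.93e-05): its fall in EGF+OSM was smaller than the falls in EGF and OSM added together. This call held in each leave-out. B2M departed by 0.26 ± 0.085 (adjusted p = 0.0187), lost without PBS replicate 2 (0.20), EGF replicate 3 (0.23) or OSM replicate 1 (0.22). PSMB8 departed by 0.79 ± 0.26 by the rule (adjusted p = 0.0183), but by 0.29 with all rows summed (adjusted p = 0.0473). By the rule its call was lost without PBS replicate 1 (0.63), EGF replicate 1 (0.71) or EGF+OSM replicate 1 (0.51). PSMB9 missed the threshold by the rule (0.67 ± 0.28, adjusted p = 0.0614) and passed it with all rows summed (0.70, adjusted p = 0.0419), without EGF replicate 2 (0.84) and without OSM replicate 2 (0.76). HLA-B, HLA-C and HLA-F did not pass, with departures of 0.05, 0.03 and -0.02.

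OSM+TGFB gave a single departure, TAP2 at -0.26 ± 0.084 (adjusted p = 0.0277), where 13.7% of all features departed downward. With its most abundant row alone it lay above the sum (0.30, adjusted p = 0.595). It was lost without PBS replicate 3 (-0.24), OSM replicate 2 (-0.25) or replicate 3 (-0.24), TGFB replicate 1 (-0.24) or replicate 3 (-0.24), and OSM+TGFB replicate 1 (-0.23). HLA-E, not called (0.24 ± 0.11), passed without OSM replicate 2 (0.33). With all ligands together, 5 members lay above the sum of the single ligands (22.1% of all features). These were HLA-E (1.24 ± 0.15, adjusted p = 2.58e-07), TAP1 (0.88 ± 0.21), HLA-B (0.81 ± 0.19), HLA-C (0.65 ± 0.13) and B2M (0.39 ± 0.12). The B2M call was lost without PBS replicate 2 (0.27) or EGF+OSM+TGFB replicate 1 (0.28). All the departures share the PBS libraries, and those of a ligand share its libraries, so they are not independent of each other.

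**Figure D3:**
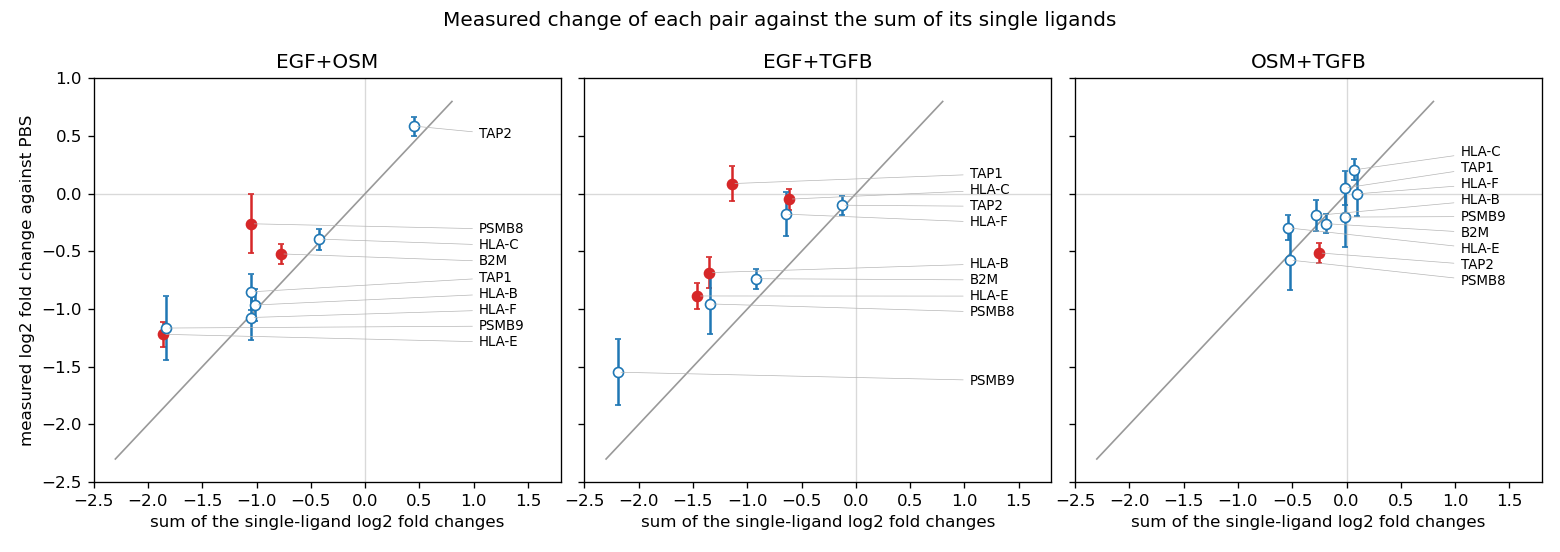
Measured log2 fold change against PBS (vertical axis) of the 9 genes in each pair of ligands, against the summed changes of the single ligands (horizontal axis); the grey diagonal marks equality, filled red points passed the test of the departure, open blue points did not, and bars are the SE of the departure. TAP1 in EGF+TGFB lies farthest above the diagonal, at a sum of -1.14 and a measured 0.09.

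Over the 24 h without ligands (PBS against T0), 6 members rose, where 16.3% of all features rose. HLA-B rose from 119.5, 106 and 97.2 CPM at T0 to its PBS level (0.55 ± 0.096, adjusted p = 9.97e-05). TAP1 rose from 38.3, 39.8 and 35.9 CPM (0.50 ± 0.11, adjusted p = 6.94e-04) and HLA-E from 78.1, 74.6 and 65.7 CPM (0.36 ± 0.076, adjusted p = 6.05e-04). These 3 calls held in each leave-out. HLA-F (0.42 ± 0.14) lost its call without T0 replicate 3 (0.35) or PBS replicate 2 (0.32), and with its most abundant row alone (0.30, adjusted p = 0.281). TAP2 (0.18 ± 0.059) lost it without T0 replicate 2 (0.15) or PBS replicate 2 (0.15), and with its most abundant row alone (0.49, adjusted p = 0.119). PSMB9 (0.53 ± 0.18) lost it without T0 replicate 1 (0.53), T0 replicate 3 (0.40), PBS replicate 2 (0.50) or PBS replicate 3 (0.52). The most abundant row of PSMB9 alone was not called either (0.57, adjusted p = 0.117). B2M (0.10 ± 0.060) passed only without PBS replicate 3 (0.16), and HLA-C did not pass (0.04 ± 0.064). Against T0, which was not tested here, the EGF levels were also lower: HLA-E at 35.5 ± 1.82 CPM lay under its T0 level of 72.8 ± 6.41 CPM, and HLA-B at 76.1 ± 4.28 CPM under 107 ± 11.3 CPM (mean ± SD, n = 3).

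Ordered by group mean, the members fell into several patterns. B2M ran from 589.7 ± 52.1 CPM in PBS, 580.4 ± 42.3 in OSM, 552 ± 35.7 in T0, 525 ± 17 in TGFB and 493 ± 22.6 in OSM+TGFB to 411 ± 11.9 in EGF+OSM, 401 ± 8.93 in EGF+OSM+TGFB, 354 ± 14.5 in EGF+TGFB and 349 ± 10.8 in EGF (mean ± SD, n = 3 throughout). All EGF-containing groups thus came below all others, and neighbours in this order overlapped except OSM+TGFB over EGF+OSM and EGF+OSM+TGFB over EGF+TGFB. PSMB9 showed the same division, with 2.28 ± 0.398 CPM in OSM, 2.02 ± 0.0753 in PBS, 1.78 ± 0.0396 in TGFB, 1.76 ± 0.264 in OSM+TGFB and 1.40 ± 0.264 in T0, then 0.90 ± 0.0704 in EGF+OSM, 0.814 ± 0.177 in EGF+OSM+TGFB, 0.688 ± 0.0634 in EGF+TGFB and 0.499 ± 0.0928 in EGF. Its neighbours did not overlap at PBS over TGFB, T0 over EGF+OSM and EGF+TGFB over EGF. HLA-E also had its 4 lowest levels in the EGF-containing groups, 57.8 ± 1.16 CPM in EGF+OSM+TGFB, 50.4 ± 3.34 in EGF+TGFB, 40.1 ± 1.48 in EGF+OSM and 35.5 ± 1.82 in EGF, and no neighbours among these 4 overlapped. It was highest in PBS (93.3 ± 6.27) and TGFB (89.1 ± 4.29), with OSM+TGFB (76.0 ± 2.20), T0 (72.8 ± 6.41) and OSM (67.3 ± 9.49) between, and OSM overlapped EGF+OSM+TGFB.

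HLA-C divided the groups another way, with EGF and EGF+OSM apart from the rest. TAP1 was also lowest in EGF and EGF+OSM, but ran on from there in steps through T0 to EGF+OSM+TGFB. HLA-C was at 203 ± 7.18 CPM in EGF and 226 ± 14.8 in EGF+OSM, overlapping each other. The other 7 groups, from 284 ± 6.34 in TGFB, 288 ± 22.2 in EGF+TGFB, 289.5 ± 10.8 in T0, 297 ± 20.6 in PBS and 325 ± 24.0 in OSM to 333 ± 15.9 in EGF+OSM+TGFB and 343 ± 18.3 in OSM+TGFB, lay above them and overlapped their neighbours. TAP1 was at 25.4 ± 2.71 CPM in EGF, 29.9 ± 0.223 in EGF+OSM, 38.0 ± 1.93 in T0 and 46.2 ± 3.96 in EGF+OSM+TGFB, without overlap between these neighbours. Above them TGFB (51.9 ± 2.28), PBS (53.9 ± 6.06), OSM (55.4 ± 9.18), OSM+TGFB (55.8 ± 4.45) and EGF+TGFB (57.2 ± 7.84) overlapped. HLA-F was likewise lowest in EGF+OSM (10.6 ± 1.25) and EGF (11.9 ± 1.84), and the other groups overlapped their neighbours from T0 (16.6 ± 1.45), EGF+OSM+TGFB (17.8 ± 2.41), EGF+TGFB (19.6 ± 2.80), OSM (20.0 ± 3.19), OSM+TGFB (22.2 ± 2.75) and PBS (22.2 ± 2.62) up to TGFB (26.5 ± 2.24).

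HLA-B stood between these patterns. It was lowest in EGF (76.1 ± 4.28 CPM) and EGF+OSM (80.4 ± 6.07), which overlapped, then rose without overlap to EGF+TGFB (97.6 ± 9.93) and on through T0 (107 ± 11.3), EGF+OSM+TGFB (110.0 ± 7.88), TGFB (127 ± 10.3) and OSM+TGFB (138 ± 4.77) to PBS (157 ± 11.9) and OSM (160.0 ± 23.1), with no overlap between OSM+TGFB and PBS. TAP2 had another order. From the top it was EGF+OSM (118 ± 6.15), EGF (96.0 ± 1.63), OSM (88.0 ± 2.26) and PBS (78.6 ± 2.51), with no overlap between neighbours. Then came EGF+OSM+TGFB (75.8 ± 7.85), EGF+TGFB (73.4 ± 2.87), T0 (69.5 ± 2.21), TGFB (58.8 ± 2.15) and OSM+TGFB (55.1 ± 3.64), where T0 overlapped neither neighbour. Every TGFB-containing group therefore had a lower TAP2 mean than PBS. PSMB8 with all rows summed was at 39.8 ± 3.66 CPM in OSM, 36.4 ± 1.90 in PBS, 34.3 ± 2.13 in T0, 32.1 ± 2.22 in TGFB, 28.8 ± 2.84 in OSM+TGFB, 28.4 ± 1.73 in EGF+OSM, 21.2 ± 0.766 in EGF, 18.4 ± 2.0 in EGF+OSM+TGFB and 17.5 ± 0.259 in EGF+TGFB. By the rule the PSMB8 means were 24.1 ± 4.54 in PBS, 22.2 ± 2.26 in OSM, 20.5 ± 0.491 in T0, 20.2 ± 6.40 in EGF+OSM, 18.2 ± 1.86 in TGFB, 16.2 ± 2.19 in OSM+TGFB, 12.6 ± 1.27 in EGF, 12.3 ± 2.95 in EGF+TGFB and 10.5 ± 1.28 in EGF+OSM+TGFB, and only OSM+TGFB over EGF did not overlap.

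**Figure D4:**
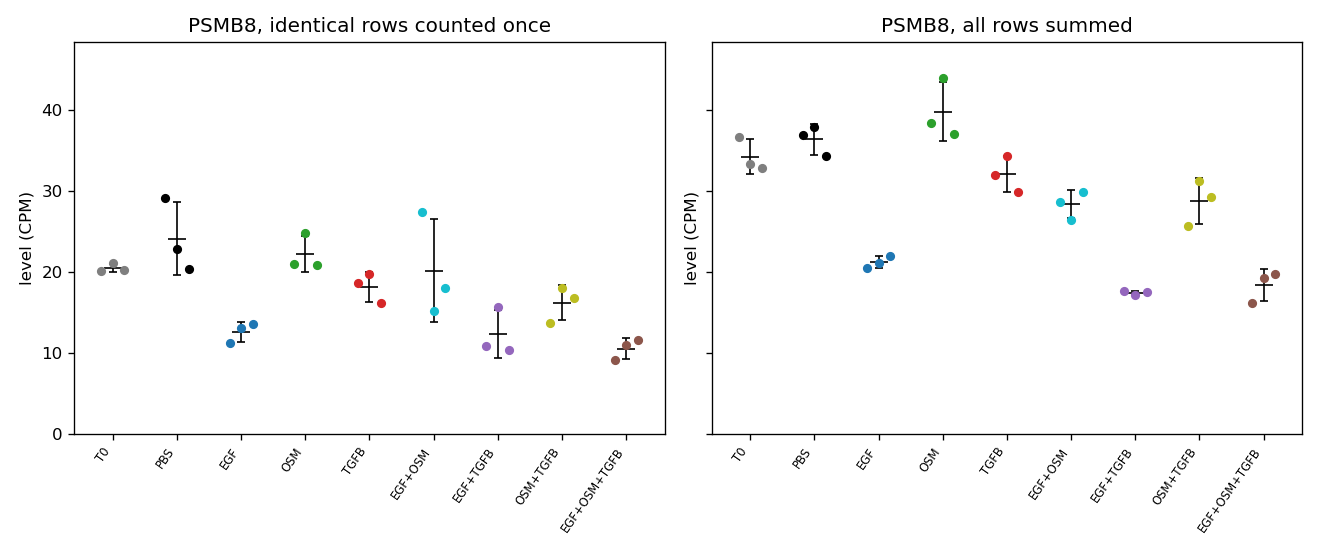
Level of PSMB8 in CPM (vertical axis from 0) in each library (points) of the 9 groups, with group mean and SD, by the rule that counts identical rows once (left) and with all its rows summed (right). The spread within PBS, EGF+OSM and EGF+TGFB is wide on the left, 20.2 ± 6.40 CPM in EGF+OSM, and narrow on the right, 28.4 ± 1.73 CPM.

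Across the 9 group means, on the log2 scale, the profile of HLA-B had a Pearson r of 0.95 with the mean of the other members and that of PSMB9 0.94. HLA-E (0.88) and B2M (0.87) followed, then HLA-F (0.72), TAP1 (0.71), HLA-C (0.67) and PSMB8 (0.56, by the rule). TAP2 ran against the others (-0.60). The closest pairs were B2M with PSMB9 (0.96) and HLA-B with PSMB9 (0.91), and the most opposed was HLA-F with TAP2 (-0.83). These values describe 9 points that share libraries and scaling, and carry no test.

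The balance of the transporter subunits shifted with the ligands. Counts of TAP1 over TAP2 in the PBS libraries were 0.751, 0.803 and 0.703. In EGF they were 0.301, 0.305 and 0.253, and in EGF+OSM 0.286, 0.280 and 0.255, so both groups lay far under PBS. TGFB (0.920, 1.04 and 0.894) and OSM+TGFB (1.1, 1.19 and 0.940) lay wholly above PBS. EGF+TGFB, at 0.825, 0.979 and 0.706, overlapped PBS, as did OSM (0.681 ± 0.113, mean ± SD, n = 3). EGF+OSM+TGFB (0.649 ± 0.0157) and T0 (0.594 ± 0.0406) lay under PBS. In an exact two-sided permutation test of 3 libraries against 3, p was 0.1 for each group that did not overlap PBS, the smallest possible, and 0.4 for EGF+TGFB and OSM.

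Immunoproteasome subunits were also measured against the constitutive subunits they replace. PSMB8 over PSMB5 was 0.262, 0.243 and 0.235 in the PBS libraries and 0.141, 0.130 and 0.132 in EGF. It was also under PBS in EGF+TGFB (0.121, 0.109 and 0.109) and EGF+OSM+TGFB (0.106, 0.130 and 0.120), and in EGF+OSM (0.175, 0.162 and 0.167). PSMB9 over PSMB6 went from 0.0362 ± 0.00166 in PBS to 0.00722 ± 0.00139 in EGF, and PSMB10 over PSMB7 from 0.151 ± 0.0185 to 0.0865 ± 0.0160 (mean ± SD, n = 3). All 4 groups with EGF lay under PBS for each of the 3 ratios (exact permutation test, two-sided p = 0.1 for each, the smallest possible). Of the groups without EGF, OSM overlapped PBS for all 3. OSM+TGFB lay under PBS for PSMB8 over PSMB5 (0.202 ± 0.0148) and for PSMB9 over PSMB6 (0.0266 ± 0.00570). TGFB (0.0310 ± 0.00204) and T0 (0.0190 ± 0.00397) also did for PSMB9 over PSMB6, and T0 for PSMB10 over PSMB7 (0.119 ± 0.000664), each at the same p of 0.1.

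**Figure D5:**
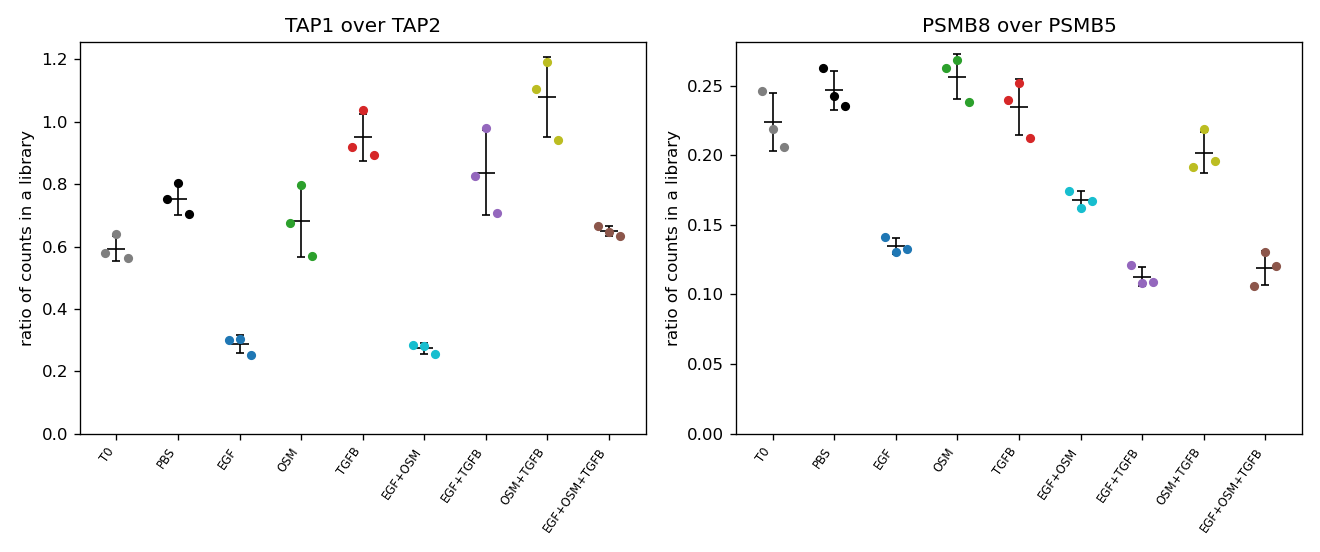
Ratio of counts in each library (points; vertical axes from 0) of TAP1 over TAP2 (left) and PSMB8 over PSMB5 (right), all rows of each symbol summed, in the 9 groups (horizontal axis), with group mean and SD. TAP1 over TAP2 is lowest in EGF (0.287 ± 0.0288) and EGF+OSM (0.274 ± 0.0165) and highest in OSM+TGFB (1.08 ± 0.128).

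The steps around these genes did not move as a block. The counts of the gene lists are to be read against the shares over all features: 34.9% rose and 38.7% fell under EGF, 33.6% rose and 29.9% fell under OSM, and 19.9% rose and 15.8% fell under TGFB. Of 7 genes of peptide loading and trimming, 2 rose and 3 fell under EGF, 5 rose under OSM, and 3 rose and 1 fell under TGFB. The chaperone CALR, part of the loading complex, rose with each ligand, from 389 ± 8.49 CPM in PBS to 770.2 ± 10.0 in EGF (0.98 ± 0.047), 770.1 ± 14.9 in OSM (0.98 ± 0.047) and 609 ± 19.9 in TGFB (0.64 ± 0.047). TAPBPL, a tapasin-related peptide editor, fell under EGF from 15.8 ± 1.06 to 4.04 ± 0.603 CPM (-1.97 ± 0.12, adjusted p = 2.86e-13). ERAP1, which trims peptides in the endoplasmic reticulum, fell under EGF (-0.93 ± 0.062) and rose under OSM (0.36 ± 0.060). Of 7 proteasome partners, 4 rose and 2 fell under EGF: the assembly chaperone POMP rose (1.03 ± 0.072), while the immunoproteasome subunit PSMB10 (-0.67 ± 0.11) and the activator subunit PSME1 (-0.90 ± 0.056) fell. Of 11 other class I and class I-like genes tested, 4 rose and 5 fell under EGF. RAET1L, a ligand of the NKG2D receptor of natural killer cells, fell under OSM from 7.29 ± 0.735 to 0.711 ± 0.0743 CPM (-3.36 ± 0.17, adjusted p = 6.32e-15) and had a log2 fold change of -0.12 ± 0.13 under EGF. AZGP1, a secreted class I-like protein, fell under EGF (-2.40 ± 0.37) and OSM (-3.59 ± 0.39).

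Of 15 regulators of class I transcription, 9 fell and 4 rose under EGF, 3 fell and 7 rose under OSM, and 4 rose under TGFB, beside 38.7% of all features lower and 34.9% higher under EGF, 29.9% lower and 33.6% higher under OSM, and 19.9% higher under TGFB. IRF1, a transcription factor of interferon responses that acts on class I promoters, stood at 29.9 ± 3.78 CPM in PBS and 12.8 ± 0.650 in EGF (-1.22 ± 0.12, adjusted p = 2.19e-09). It rose under OSM (0.52 ± 0.11) and had a log2 fold change of 0.03 ± 0.11 under TGFB (adjusted p = 0.873). In EGF+TGFB it was at 24.3 ± 1.26 CPM (-0.30 ± 0.12, adjusted p = 0.0243). NLRC5, the class I transactivator, did not fall under EGF. It was higher in EGF (0.29 ± 0.098, adjusted p = 0.0104), TGFB (0.32 ± 0.099, adjusted p = 0.0114) and EGF+TGFB (0.94 ± 0.097, adjusted p = 2.67e-09). SOCS1, a feedback inhibitor of interferon signalling, fell under EGF (-3.01 ± 0.22) and OSM (-4.05 ± 0.25), and EZH2, a histone methyltransferase, rose under EGF (1.91 ± 0.10) and OSM (1.36 ± 0.10).

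Interferon transcripts themselves were barely detected: IFNB1, IFNG, IFNL1, IFNE and IFNK had at most 10 counts in any library and were not tested. Of 6 tested genes of the interferon and receptor list, 3 rose and 3 fell under EGF. IFNGR1, a chain of the interferon gamma receptor, fell from 155 ± 17 to 49.7 ± 1.38 CPM (-1.64 ± 0.095, adjusted p = 1.86e-13), while its partner chain IFNGR2 rose (0.86 ± 0.057). Of 16 interferon-stimulated genes, 14 fell and 2 rose under EGF, 6 fell and 6 rose under OSM, and 4 fell and 3 rose under TGFB. Over all features 38.7% fell and 34.9% rose under EGF, 29.9% fell and 33.6% rose under OSM, and 15.8% fell and 19.9% rose under TGFB. Their median log2 fold change under EGF was -0.89, beside -0.07 over all features. GBP2, an interferon-induced GTPase, fell from 101 ± 9.30 to 14.5 ± 2.74 CPM (-2.80 ± 0.24), and IFIT1 and IFIT2, antiviral RNA-binding proteins, fell by 2.49 ± 0.20 and 2.73 ± 0.23. The lists were written with earlier results of these data known, so their counts are descriptions.

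Class II genes, which present peptides to helper T cells, were at low levels. The largest level among those named was CD74, the class II invariant chain, in OSM, at 2.51 ± 0.408 CPM against 0.181 ± 0.130 in PBS (3.80 ± 0.55, adjusted p = 1.30e-06). HLA-DRA was at 1.75 ± 0.657 CPM in OSM and 0.0786 ± 0.0251 CPM in PBS, with 38 to 104 counts per OSM library and 2 to 4 per PBS library. Of 8 class II genes tested, 5 rose under OSM (33.6% of all features), and 4 fell (38.7%) and 1 rose (34.9%) under EGF. In EGF, HLA-DRA and HLA-DRB1 were at 0 counts in every library, with at most 4 and 7 counts per PBS library, so no fold is given.

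Among 10613 features with a mean of at least 5 CPM, the profiles closest to the mean of the members across the 9 groups were KIAA1217 (Pearson r = 0.966), FOSL2 (0.966), ADPRM (0.959), TRIM56 (0.959) and CST3 (0.951). FOSL2, an AP-1 transcription factor, was at 559 ± 12 CPM in PBS, 121.9 ± 8.08 in EGF and 204.3 ± 15.9 in EGF+TGFB (mean ± SD, n = 3). CST3, a secreted inhibitor of cysteine proteases, was at 347 ± 27.6, 149.4 ± 9.29 and 164 ± 9.24 CPM in the same groups. These genes were chosen for the likeness of their profiles, which is a description over 9 points.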

How the data were processed

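RNA from MCF10A cells was sequenced from polyA-selected, strand-keeping libraries, per the labels' protocols. The authors deposited a table of estimated counts, held as whole numbers, per Ensembl gene; the submitters' processing notes name Trim Galore 0.4.3, cutadapt 1.10, FastQC 0.11.5, kallisto 0.46.2 and R 3.5.0, and the builds hg38 and GRCh38.p5. How transcripts were summed to genes and rounded is not given in the sources used here. Of 40487 rows, 7165 had no symbol (0.324% of counts) and were kept under their Ensembl identifier, and 837 rows with counts that repeated another row of their symbol in every library were dropped (0.789% of counts). Rows of a symbol were summed, which left 36536 features. Features with low counts were removed with filterByExpr, and 15547 were tested.

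Counts were scaled by trimmed mean of M values (factors 0.867 to 1.12) and fitted with edgeR 4.0.16 (R 4.3.3), quasi-likelihood with robust dispersion, on all 27 libraries with a mean for each of the 9 groups (18 residual degrees of freedom). The factors differed between groups, at 1.08 to 1.12 in PBS, 0.870 to 0.888 in OSM+TGFB and 0.867 to 0.891 in EGF+OSM+TGFB. P-values were adjusted by Benjamini-Hochberg over all 15547 features, and a feature was called at an adjusted p under 0.05. Departures from additivity were contrasts on the log2 scale. The biological coefficient of variation was 7.83%. The fit was tested on simulated data. No label names a batch. Still, 27 of 27 libraries correlated best with their own replicate number in deviations from group means. The calls in the report leave this out, and values with a replicate block are given at the end.

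Named genes were all 9 members, at most 3 genes of each other list with the largest called change in EGF, OSM or TGFB, the regulators IRF1 and NLRC5, and the 5 genes with the most similar profile. Some genes that this rule or the marker lists hold are not reported here. The members and lists were chosen with earlier results of these data known. The alternatives were other scalings, no filter on low counts, DESeq2 1.42.0, other treatments of the rows, a replicate block and leaving out each library.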

Additional observations from a re-analysis of the deposited data

Results flagged for a closer look

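The 8 results below are effects of a ligand that differed with the other ligand present, by the test of the departure from additivity. In EGF+TGFB the departures were 1.23 for TAP1, 0.67 for HLA-B, 0.58 for HLA-E and 0.57 for HLA-C on the log2 scale. In EGF+OSM they were 0.79 for PSMB8 (0.29 with all rows summed), 0.65 for HLA-E and 0.26 for B2M. In OSM+TGFB the departure of TAP2 was -0.26. The calls of TAP2 in OSM+TGFB and of B2M and PSMB8 in EGF+OSM were each lost in some leave-outs. With the most abundant row alone, TAP2 lay above the sum (0.30, adjusted p = 0.595) and PSMB8 was not called (0.41, adjusted p = 0.553). All 8 comparisons share the PBS libraries.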

How the results depend on the processing

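Counts of members called are given here. The 9 calls in EGF against PBS held in each leave-out and under other scalings, no filter, DESeq2, all rows summed and the replicate block. With only the most abundant row of each member, TAP2 changed sign in EGF (-0.0565, adjusted p = 0.839), OSM (-0.224, adjusted p = 0.430) and the OSM+TGFB departure (0.302, adjusted p = 0.595), and counts were 3 for PBS against T0 (6 in the report), 1 for EGF+OSM against EGF (4), 1 for OSM+TGFB against OSM (3), 0 for EGF+OSM+TGFB against EGF+TGFB (3), 3 for EGF+OSM+TGFB against OSM+TGFB (7) and 0 for the OSM+TGFB departure (1). In that setting the PSMB8 call in EGF against PBS was lost (-0.77, adjusted p = 0.0517), as were the TAP2 calls in EGF+OSM against PBS (adjusted p = 0.293) and EGF+TGFB against EGF (adjusted p = 0.147), and 25 calls of members were lost and 2 gained besides the sign changes. Upper-quartile scaling gave 1 for OSM against PBS (2) and 4 for OSM+TGFB against TGFB (2). Without a filter the counts were 1 for OSM against PBS, 1 for EGF+OSM+TGFB against EGF+TGFB and 0 for the OSM+TGFB departure. The replicate block gave 7 for EGF+OSM against EGF, 5 for EGF+OSM+TGFB against EGF+TGFB and 2 for the OSM+TGFB departure. Over all 15547 features the block also called more, 6277 (5433 without it) for EGF+OSM against EGF. It called 4819 (4093) for EGF+OSM+TGFB against EGF+TGFB and 4396 (3626) for the OSM+TGFB departure. Under it 17 further values of members were called, among them the EGF+TGFB departures of HLA-F (0.47, adjusted p = 0.00370) and B2M (0.18, adjusted p = 0.0392), HLA-B in OSM+TGFB (-0.19, adjusted p = 0.00310), HLA-C in OSM (0.13, adjusted p = 0.00976) and TAP1 in EGF+OSM+TGFB (-0.21, adjusted p = 0.0226) against PBS, and 1 call was lost. Replicate numbers are not stated to pair libraries. Between groups, 71 of 108 same-numbered pairs correlated over 0.1 in their deviations from group means (median 0.13). The median was -0.062 over the 216 pairs between groups with different numbers, and 27 of 27 libraries correlated best with their own number. Leaving out single libraries gave 1 to 3 for OSM against PBS, 1 to 3 for TGFB against PBS, 3 to 6 for PBS against T0, 2 to 5 for OSM+TGFB against OSM, 1 to 3 for OSM+TGFB against TGFB, 0 to 2 for EGF+OSM+TGFB against EGF+TGFB and 0 to 1 for the OSM+TGFB departure. Of 2700 values of members compared with the reported ones, 85 changed sign with neither value called. The cause of these changes was not tested. PSMB9, with 18 to 114 counts per library, was the member most limited by depth.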
